A study of Mus musculus with 6 samples.

Results

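The vehicle-cultured thymic tuft cells were the 3 control libraries of a series of 6. They were chosen by their labels alone, and no measured value entered the choice. Tuft cells had been sorted from thymi of young wild-type (WT) male mice, spun into aggregates in wells, kept for 12 h and then for 24 h in fresh medium, and given the PBS vehicle for a further 24 h. The other 3 libraries received rIL-13 and were not compared here. Polyadenylated RNA was counted in bulk by MARS-seq, which tags the 3′ end of transcripts with unique molecular identifiers (UMIs). The sort markers, and whether the 3 replicates were separate animals, pools or wells, are not given in the sources used here, so the spread between them may be technical.

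Tuft cells are chemosensory epithelial cells. Taste-type receptors on these cells act through G proteins and a phospholipase C to release calcium, which opens the cation channel Trpm5. In the gut and airway they are known for making IL-25, leukotrienes, prostaglandins and acetylcholine. In the thymus they belong to the medullary epithelium, in which small groups of cells take on features of peripheral tissues.

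The 9088 listed genes held 394513, 457823 and 489919 UMIs in replicates 1, 2 and 3. One UMI was worth 2.53, 2.18 and 2.04 CPM (UMIs scaled to a common total of listed genes) in the same order, and this is the level used throughout. Because 1 tag is counted per transcript end, levels were not divided by transcript length. At least 1 UMI was found for 8845, 8938 and 8959 genes. A UMI was present in every library for 8659 genes and in none of the 3 for 12. No Xist row was analysed here, and the Y-linked Ddx3y had 8, 11 and 7 UMIs in replicates 1, 2 and 3, so Y-linked RNA was present.

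A pair of signals each set a single library apart. Replicate 3 held 1940 UMIs of the skeletal muscle-type list, against 67 and 314 in replicates 1 and 2. Replicate 1 held 1773 UMIs in the row named Mir692-1, against 34 and 21 in replicates 2 and 3. Values that rest on these libraries are given per library.

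The tuft cell label was checked on 5 markers. Avil, an actin-binding protein of the apical tuft, had 804, 1003 and 929 CPM in replicates 1, 2 and 3 and ranked 154 among all genes. Trpm5 had 423, 478 and 451 CPM (rank 368). Ltc4s, the synthase of leukotriene C4, had 400, 446 and 371 CPM (rank 430). All 3 libraries thus held these transcripts at close levels. Sh2d6, an adaptor-like protein with an SH2 domain, had 342, 363 and 371 CPM (rank 493). Alox5, the lipoxygenase that starts leukotriene synthesis, had 238, 266 and 239 CPM (rank 706). None of the 5 varied beyond counting noise, by a test described with the spread below, and their median coefficient of variation (CV) was 6.51%. Of all genes at their depths, 27.4% (150 to 599 UMIs in all) and 61.9% (600 to 2999) did vary beyond it. This result was therefore not read as particular to these 5 markers. On mm10 these protein-coding genes lie on chromosome 10 from 127000709 to 127020994 (Avil), chromosome 7 from 143069153 to 143094642 (Trpm5), chromosome 11 from 50236461 to 50238616 (Ltc4s), chromosome 6 from 72513641 to 72521707 (Sh2d6) and chromosome 6 from 116410077 to 116461178 (Alox5).

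Of 72 tuft cell marker symbols, 64 were listed, and together they took 1.78%, 2.13% and 1.96% of UMIs in replicates 1, 2 and 3. The symbols not listed include Irag2 and Ccdc129, which are other names of the listed Lrmp and Itprid1. Fewer genes than symbols were therefore missing. The most abundant included keratins and G protein subunits that other cells also express. Without broadly expressed genes the share was 1.01% ± 0.105 (SD, n = 3), and the 5 markers alone took 0.237% ± 0.0174 (SD, n = 3). Tuft cell transcripts were thus present in every library, at levels below those of the most abundant genes.

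The taste-type cascade was led by a G protein beta subunit. Gnb3 had 502, 692 and 775 UMIs in replicates 1, 2 and 3 and ranked 94. Gng13, its gamma partner, had 360, 596 and 620 UMIs and ranked 122. It was lowest in replicate 1. Plcb2, the phospholipase of the cascade, had 160, 301 and 188 CPM. Gnat3, the alpha subunit gustducin, had 147, 111 and 42.9 CPM, with replicate 3 lowest. Tas1r3, a taste receptor subunit, had 4, 5 and 7 UMIs, near the limit of detection. Gnb3 and Gng13 thus ranked far above Gnat3 and Tas1r3. This did not hold for every alpha subunit, since Gnai2, also in the tuft list, had 484, 690 and 675 UMIs and ranked 102. Tas1r1, another taste receptor subunit, had 12, 32 and 17 UMIs and ranked 3706.

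Eicosanoid enzymes followed. Ptgs1, the constitutive cyclooxygenase, had 370, 227 and 271 CPM in replicates 1, 2 and 3. Alox5ap, the membrane partner of Alox5, had 297, 229 and 157 CPM. Both were highest in replicate 1 and varied beyond counting noise, as did 27.4% of all genes with 150 to 599 UMIs. Alox5 and Ltc4s did not pass the test, which does not show that they varied less. The signalling genes Ptpn6 and Matk, a phosphatase and a kinase, had 427 ± 49.8 and 214 ± 30.1 CPM (SD, n = 3 each) and did not pass that test.

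Lineage and effector genes covered a wide range. Spib, an ETS factor, ranked 730 with 87, 117 and 120 UMIs in replicates 1, 2 and 3. Ascl2 ranked 1332 with 57, 70 and 53 UMIs. Pou2f3, the factor required for tuft cells, had 5, 16 and 20 UMIs and ranked 4924. Dclk1, a widely used tuft marker, had 10, 11 and 14 UMIs. Il25 had 8, 9 and 9 UMIs, and Chat, which makes acetylcholine, had 7, 5 and 3. None of Pou2f3, Dclk1, Il25 and Chat varied beyond counting noise, and counts this small show only large differences. The markers Gfi1b, Hpgds and Siglecf were among the 8 symbols not analysed here.

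**Figure D1:**
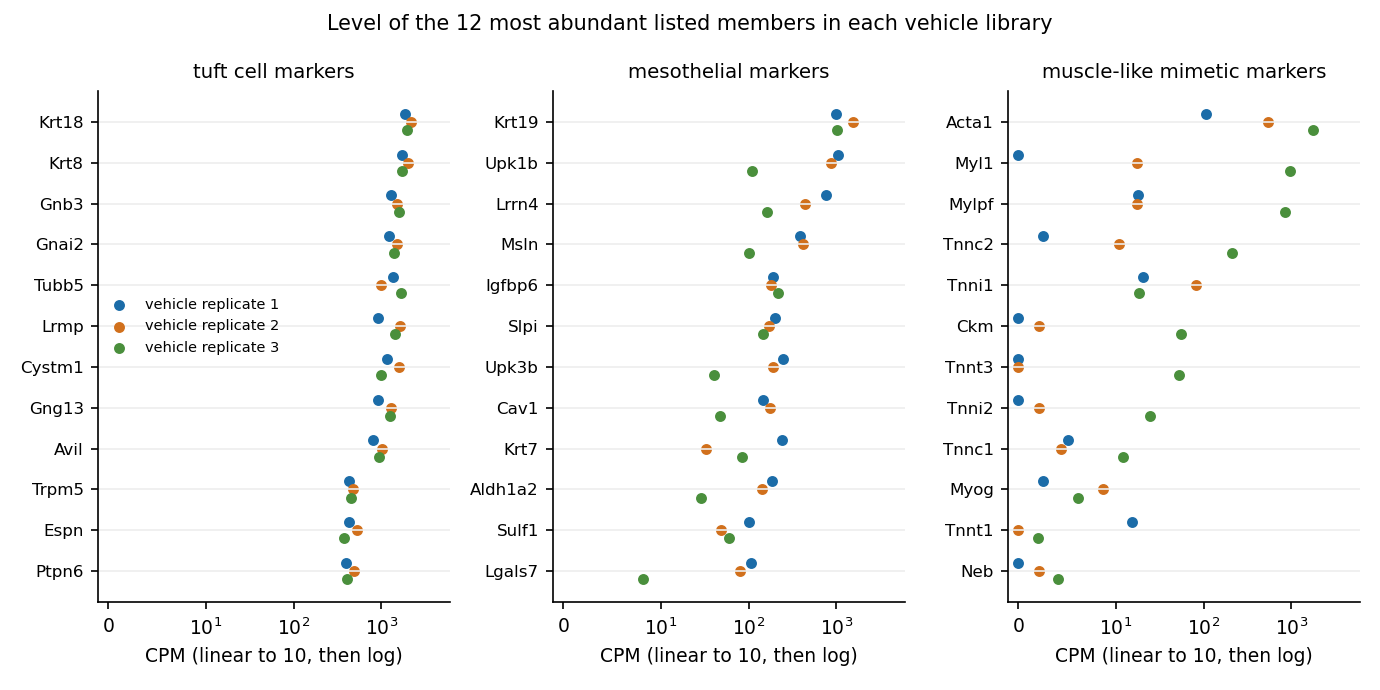
Level in CPM, on an axis that is linear to 10 and logarithmic above, of the 12 most abundant listed markers of tuft, mesothelial and muscle-like cells, with 1 point per vehicle library. Avil and Trpm5 keep close levels in the 3 libraries, while Upk1b is lowest and Acta1 highest in replicate 3. Other tuft markers vary beyond counting noise, among them Lrmp, at 910, 1638 and 1415 CPM in replicates 1, 2 and 3, and Tubb5, at 1346, 992 and 1657 CPM.

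Markers of other cell types were counted in the same way. The mural and smooth muscle list had 11 of 15 members listed and took 0.649%, 0.725% and 0.858% of UMIs in replicates 1, 2 and 3. The fibroblast list had 20 of 24 listed and took 0.606%, 0.478% and 0.7%. Thymic epithelial markers had 16 of 29 listed and took 0.439%, 0.499% and 0.458%. The mural list thus took a larger share than the thymic epithelial list in every library, but a pair of genes supplied most UMIs of each. They were Tagln (1308, 1898 and 1723 UMIs) and Tpm1 (885, 941 and 1291) in the mural list. In the epithelial list they were Krt8 and Krt18, which the tuft list also holds. These shares were therefore not read as amounts of either cell type. The part of such cells in any level reported here was not tested. In bulk RNA, fewer cells of a type and less RNA per cell cannot be told apart.

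Blood and vessel lists were small. Thymocyte markers had 2 of 25 members listed and 1, 15 and 9 UMIs in replicates 1, 2 and 3. B cell markers had 19, 18 and 25 UMIs, from 1 listed gene. Myeloid markers had 80, 84 and 27 UMIs, mostly Csf1r, and endothelial markers had 60, 102 and 27, with Kdr at 34, 51 and 4. Replicate 3 was lowest for both. ILC2 markers had 11, 3 and 9 UMIs, and none of the 9 erythroid markers was listed.

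**Figure D2:**
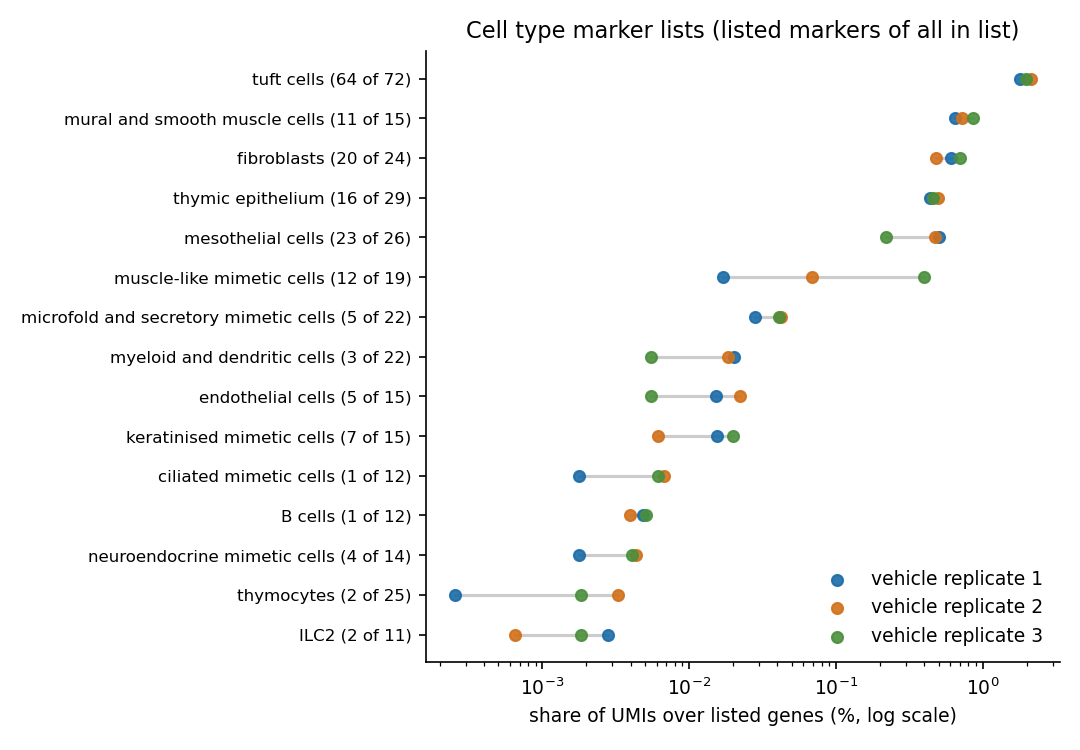
Share of UMIs, in percent on a log axis, taken by each marker list with a listed member, with 1 point per vehicle library joined by a line. Tuft cell markers, which are the longest list and include broadly expressed genes, take the largest share of the lists shown. The muscle-like list runs from 0.017% in replicate 1 to 0.396% in replicate 3.

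A small number of genes held much of each profile. The most abundant gene took 2.09% ± 0.104 of UMIs, the 10 most abundant 7.70% ± 0.0893, the 100 most abundant 28.8% ± 0.709 and the 500 most abundant 53.4% ± 1.03 (SD, n = 3 each). It took 378, 409 and 421 genes to reach 50% of UMIs in replicates 1, 2 and 3. By mean level, 144 genes were at or above 1000 CPM, 318 (3.50%) at or above 500, 3426 at or above 50 and 8057 at or above 10. The libraries shared the head of the ranking: 8 of each library's own 10 most abundant genes, 76 of its 100 and 413 of its 500 were common to all 3.

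The most abundant transcript was Ftl1, the ferritin light chain, at 20395, 22074 and 20169 CPM in replicates 1, 2 and 3. Ftl1 lies on chromosome 7 from 45457944 to 45459884. It ranked first in every library. Fth1, the heavy chain, had 5105, 4915 and 5483 CPM. Between them came the ribosomal protein Rplp1 with 8988, 8689 and 7848 CPM, the galectin Lgals1 with 6983, 8761 and 7622 CPM, and the actin Actb with 7592, 6686 and 7199 CPM. Vim, an intermediate filament protein typical of mesenchymal cells, ranked 10 with 4679, 3870 and 5103 CPM. Tagln, an actin-binding protein of contractile cells, ranked 18. Ftl1 and Fth1 have processed pseudogenes and near-identical copies, and how shared reads were assigned is not given in the sources used here.

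**Figure D3:**
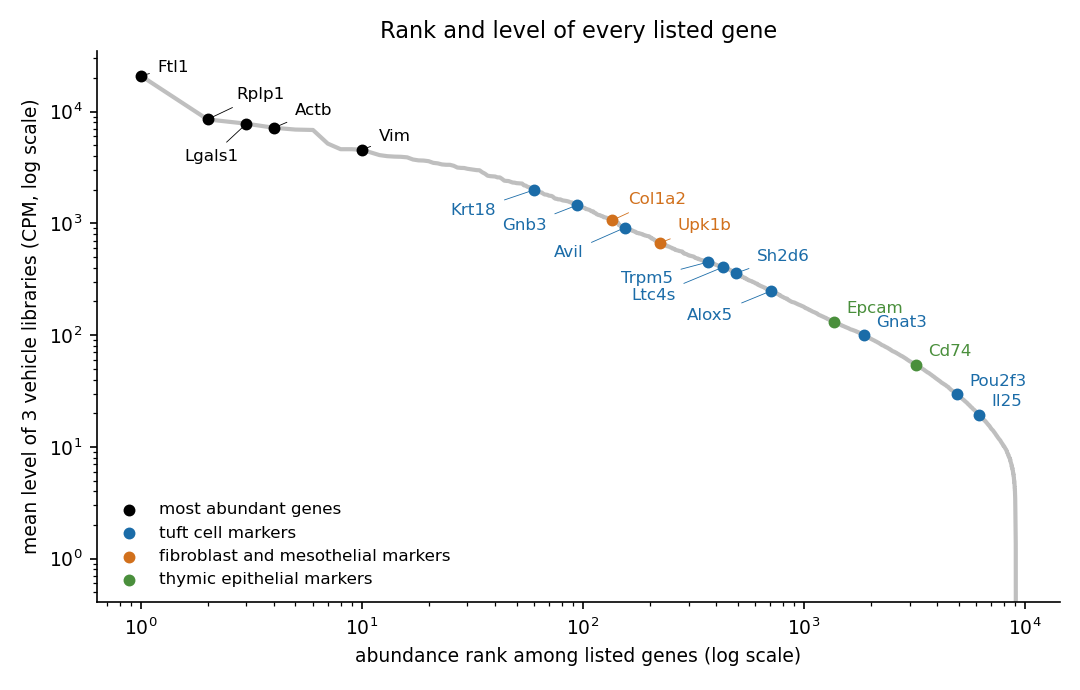
Mean CPM of every listed gene over the 3 vehicle libraries against its abundance rank, both on log axes, as a line, with chosen abundant, tuft cell, fibroblast or mesothelial and thymic epithelial genes as coloured points. Ftl1 stands at the head, the 5 given markers lie between ranks 154 and 706, and Pou2f3 lies at rank 4924 and Il25 at rank 6169.

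Epithelial and secreted genes followed over a wide range of ranks. Krt18 and Krt8, the paired keratins of simple epithelium, had 732, 985 and 963 and 681, 914 and 841 UMIs in replicates 1, 2 and 3, at ranks 60 and 67. Timp1, an inhibitor of matrix proteases, had 1452, 2636 and 3405 CPM, lowest in replicate 1. Hmox1, which degrades heme, had 2542, 1712 and 1135 CPM, highest in replicate 1. Csf1, the macrophage growth factor, ranked 98, Ccn2, a matricellular protein, ranked 74, and Tnfrsf12a, the TWEAK receptor, ranked 104. Epcam, an epithelial adhesion molecule, had 31, 74 and 76 UMIs at rank 1370, and Cdh1, E-cadherin, had 33, 52 and 50 at rank 1875.

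Of 25 gene classes, 24 with a listed member together took 50.7%, 49.9% and 49.3% of UMIs in replicates 1, 2 and 3. Cytosolic ribosomal proteins, with 77 listed genes, came first and took 16%, 15.8% and 14.9%. They supplied 4 of the 10 most abundant genes, 14 of the 25 and 46 of the 100. Ferritins, metallothioneins and antioxidant genes took 3.96% ± 0.163, mostly Ftl1 and Fth1, and actin cytoskeleton genes took 3.90% ± 0.179 (SD, n = 3 each). Nuclear-encoded oxidative phosphorylation genes took 3.34% ± 0.223, matrix genes 3.01% ± 0.376 and translation factors 2.94% ± 0.170 (SD, n = 3 each). Chaperones took 2.58% ± 0.149 and annexins, galectins and S100 proteins 2.20% ± 0.236 (SD, n = 3 each).

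Leading members show what these classes held. Among ribosomal proteins, Rpl41 had 2540, 3449 and 3297 UMIs in replicates 1, 2 and 3 and Rps2 had 2846, 3005 and 3310, at ranks 5 and 6. Cfl1, which severs actin filaments, had 1812, 1982 and 2398 UMIs and ranked 8. Both groups thus supplied genes to the first 10 ranks. Eef1a1, the elongation factor that brings tRNAs to the ribosome, had 1185, 1657 and 1362 UMIs (rank 28). Tpt1, a translationally controlled protein, averaged 3644 ± 841 CPM (SD, n = 3; rank 19). The order of the libraries differed between these genes.

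Energy and folding genes stood among the same ranks. Gapdh, a glycolytic dehydrogenase, had 1127, 1861 and 1555 UMIs in replicates 1, 2 and 3 (rank 23), and Pkm, pyruvate kinase, had 996, 1024 and 1032 (rank 50). Cox4i1, a subunit of cytochrome oxidase, had 667, 909 and 788 UMIs (rank 71), and Atp5b, a catalytic subunit of ATP synthase, had 563, 824 and 858 (rank 76). Gapdh and Cox4i1 were highest by level in replicate 2. Hspa8, a constitutive cytosolic chaperone, had 1097, 1385 and 1553 UMIs (rank 33). The calcium-binding protein S100a6 had 1098, 1375 and 1373 UMIs (rank 35) and did not pass the noise test, while Anxa2, a membrane-binding annexin, had 1155, 1165 and 1104 (rank 42) and did.

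Antigen presentation genes differed by class. The class I chains H2-D1 and H2-K1 had 356, 436 and 401 and 276, 291 and 345 UMIs in replicates 1, 2 and 3, at ranks 160 and 219. The class II genes H2-Ab1 and H2-Aa had 18, 45 and 33 and 13, 35 and 37 UMIs, and Cd74, the invariant chain, had 20, 28 and 25. Class II transcripts thus ranked far below class I, from 2574 to 3207. The long non-coding RNA Neat1, which scaffolds nuclear paraspeckles, ranked 158 with 240, 534 and 457 UMIs.

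Smaller classes filled the rest. Tuft cell genes in no other class took 1.17%, 1.46% and 1.3% of UMIs in replicates 1, 2 and 3, close to lysosomal genes at 1.17%, 1.25% and 1.1% and glycolytic genes at 1.02%, 1.13% and 1.07%. Contractile genes of the smooth muscle type took 0.788%, 0.915% and 1.17%, highest in replicate 3. This class as counted also holds the skeletal muscle actin Acta1, with 42, 246 and 872 UMIs, which is part of that rise. Keratins took 0.533% ± 0.0477, cell cycle genes 0.437% ± 0.0558, antigen presentation genes 0.261% ± 0.0165 and interferon-stimulated genes 0.186% ± 0.0203 (SD, n = 3 each). Transcripts encoded by the mitochondrial genome were not listed.

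**Figure D4:**
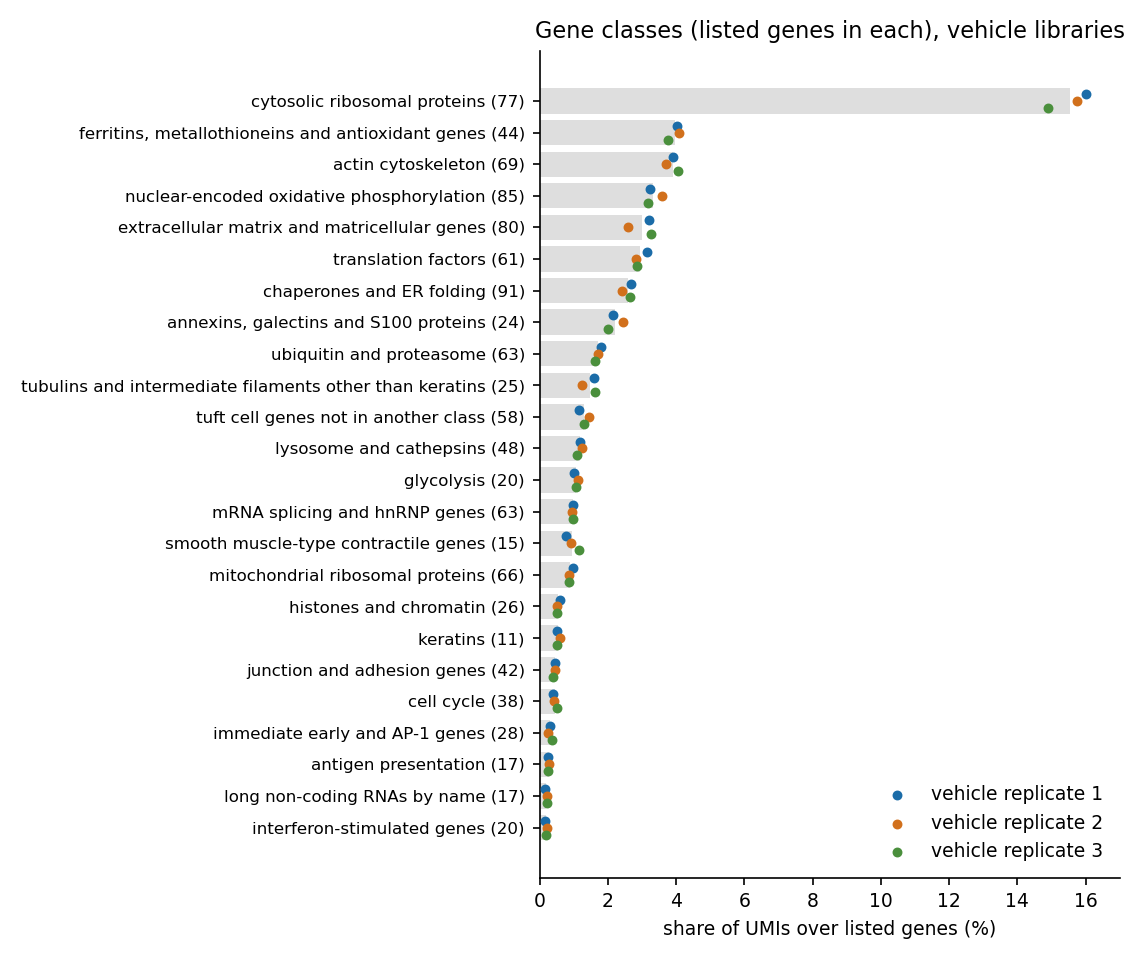
Share of UMIs, in percent, taken by each gene class, with 1 point per vehicle library and a bar for their mean. Cytosolic ribosomal proteins average 15.6%, above every other class shown.

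Ribosomal protein promoters are shown because the class dominates the profile and its transcripts are known for starting at a C followed by pyrimidines, a motif tied to control of their translation. Promoter windows from RefSeq (GRCm38.p6) matched 7303 listed genes. A tract was counted where the annotated start was C and at least 4 more bases were C or T, on the gene's own strand. It was found for 11 of 58 ribosomal protein genes, 3 of 49 translation factors, 181 of all 7303 (2.48%) and 0 of 53 tuft cell markers. These letters depend on where the annotation puts the start. The lines give 50 bases before and 20 after the start, with the tract in capitals, for 3 ribosomal protein genes at chr7:141447601-141447670 (plus strand), chr17:33955646-33955715 (minus) and chr17:27635225-27635294 (minus), and for 2 tuft markers at chr10:127000659-127000728 (plus) and chr7:143094623-143094692 (minus).
Rplp2: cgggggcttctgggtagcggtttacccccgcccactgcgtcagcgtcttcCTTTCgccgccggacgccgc
Rps18: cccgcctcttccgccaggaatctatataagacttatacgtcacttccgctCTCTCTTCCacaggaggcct
Rps10: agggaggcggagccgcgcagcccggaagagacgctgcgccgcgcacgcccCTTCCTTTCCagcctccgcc
Avil: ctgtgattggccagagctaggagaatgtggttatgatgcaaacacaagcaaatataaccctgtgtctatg
Trpm5: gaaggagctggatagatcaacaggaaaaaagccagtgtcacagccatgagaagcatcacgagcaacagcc

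The spread between the libraries was set against counting error. For each gene with at least 15 UMIs in all, a Pearson chi-square with 2 degrees of freedom compared its 3 counts with its total shared out by library totals, at a Benjamini-Hochberg adjusted threshold of 0.05. This compares 3 libraries and holds no replicate error. Of 7858 genes, 1219 (15.5%) varied beyond counting noise. The share called grew with depth, at 7.96% of genes with 15 to 59 UMIs, 14.6% with 60 to 149, 27.4% with 150 to 599, 61.9% with 600 to 2999 and 69.8% with at least 3000, so calls among abundant genes need the share at their own depth beside them. Over genes past the same filter the common biological CV was 26.1%. Pairs of libraries correlated at a Spearman rho of 0.873 (replicates 1 and 2), 0.850 (1 and 3) and 0.871 (2 and 3) across genes, which are not independent.

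**Figure D5:**
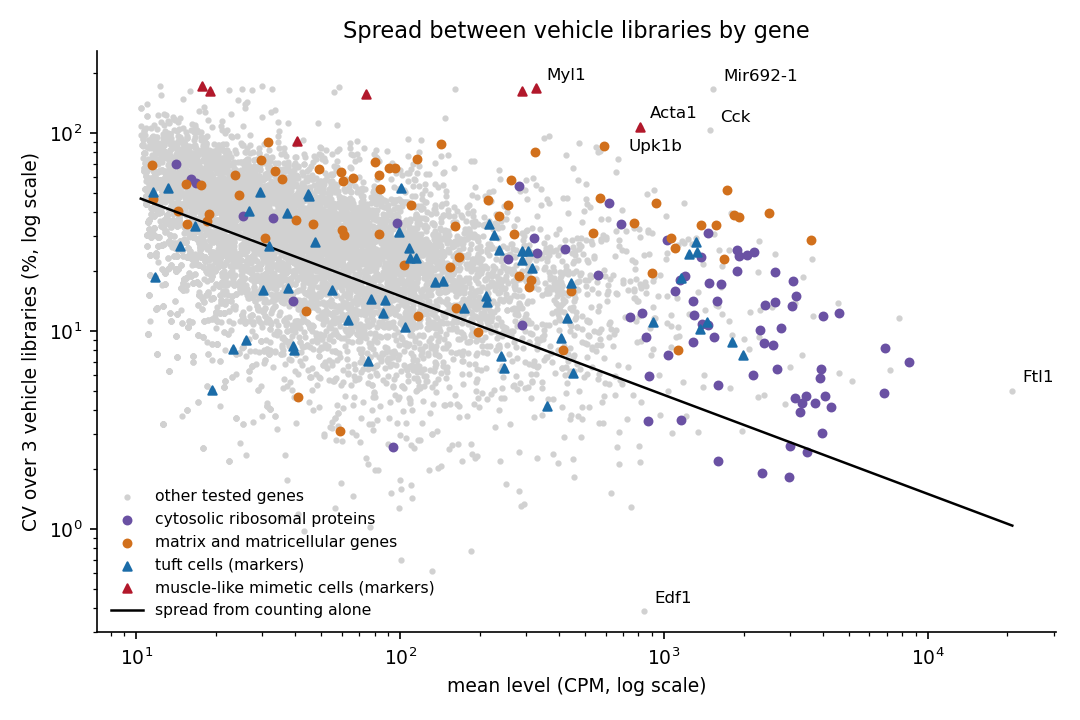
CV of CPM over the 3 vehicle libraries, in percent, against mean CPM for each gene on log axes, with the CV that counting alone gives as a line. Mir692-1, Acta1 and Cck stand far above the line, and tuft markers lie on both sides of it. Triangles mark tuft cell and muscle-like markers, and circles the ribosomal protein, matrix and other genes.

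Called genes were spread over the libraries. They were highest in replicate 1 for 427 genes (5.43% of those tested), in replicate 2 for 364 (4.63%) and in replicate 3 for 428 (5.45%). They were lowest in replicate 1 for 457 genes (5.82%), in replicate 2 for 360 (4.58%) and in replicate 3 for 402 (5.12%). Among ribosomal protein genes 46 of 77 were called, and 30 of the 46 were highest in replicate 1, 13 in replicate 2 and 3 in replicate 3. At 500 CPM and above, 40 of 63 ribosomal protein genes were called, against 65.4% of all genes at that level, and their median CV beyond counting was 9.90%, against 13.05%. Oxidative phosphorylation genes had 25 of 83 called, close to the 27.4% of all genes with 150 to 599 UMIs, and 18 of the 25 were highest in replicate 2. Actin cytoskeleton genes had 35 of 66 called, and 18 of 21 at 500 CPM and above, where 65.4% of all genes were called. Of the 35, 20 were highest in replicate 3.

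Matrix genes differed widely between libraries. At 500 CPM and above, 16 of 17 were called and their median CV beyond counting was 34.0%, against 13.05% for all genes at that level. Mgp, an inhibitor of calcification, had 1488, 2715 and 992 CPM in replicates 1, 2 and 3, highest in replicate 2. Bgn, a small proteoglycan, had 518, 719 and 1295 UMIs, highest in replicate 3. Matrix genes therefore did not share 1 order across the libraries. Contractile genes had 12 of 14 called, beside 27.4% of all genes with 150 to 599 UMIs, and 10 of the 12 were highest in replicate 3. Acta1, which the skeletal muscle-type list also holds, is among these 10.

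Of 59 tested tuft markers, 17 were called. Over genes of all depths that share was 15.5%, and it was 27.4% at 150 to 599 UMIs, so the count was not read as particular to the markers. The rest did not pass, which does not show that they did not differ.

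The skeletal muscle-type list followed 1 library. It had 12 of 19 members listed and took 0.017%, 0.0686% and 0.396% of UMIs in replicates 1, 2 and 3. All 7 tested members were called, beside 15.5% of all tested genes, and 6 of them were highest in replicate 3, as were 428 of all 1219 called genes. Tnnc2 (1, 5 and 102 UMIs), Ckm (0, 1 and 27) and Tnnt3 (0, 0 and 26) reached the 15-UMI filter only through replicate 3. Myl1 did so too. Their calls and library order were largely fixed by that filter, so the counts of members were not read as support for the pattern. Acta1, skeletal muscle actin on chromosome 8 from 123891769 to 123894751, had 106, 537 and 1780 CPM, highest in replicate 3. Myl1, a fast-fibre myosin light chain, had 0, 8 and 471 UMIs, and Mylpf, another, had 7, 8 and 409. Myh1, a fast myosin heavy chain, had 0, 1 and 85 UMIs, and Car3, a carbonic anhydrase of muscle and fat, had 1, 5 and 230. Replicate 3 held nearly all UMIs of these 4 genes. Cck, a gut hormone and neuropeptide on chromosome 9 from 121489824 to 121495694, had 347, 882 and 3252 CPM, in the same library order. Myh1, Car3 and Cck are not in the list and were named as among the most variable genes at their level. Myh1 and Car3 reached that level through replicate 3 alone. Their large spread was thus fixed by how they were chosen, and they were not read as support for the pattern.

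The mesothelial list was lowest in replicate 3. It had 23 of 26 members listed and took 0.501%, 0.470% and 0.220% of UMIs in replicates 1, 2 and 3. Of 21 tested members, 14 were called, beside 15.5% of all tested genes, and 11 were lowest in replicate 3, as were 402 of all 1219 called genes. Upk1b, a uroplakin on chromosome 16 from 38773184 to 38800328, had 1039, 865 and 110 CPM. Lrrn4, a leucine-rich repeat membrane protein, had 763, 435 and 161 CPM, and Msln, mesothelin, had 385, 417 and 100 CPM. Replicate 3 was lowest for all 3 genes. Fibroblast markers differed again, with 16 of 20 called, beside 27.4% of all genes with 150 to 599 UMIs, and 10 of the 16 highest in replicate 3. What the sorted cells contributed to these lists was not tested.

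Other secreted and stress genes also stood out at 500 CPM and above. Igfbp4, a binding protein of insulin-like growth factors, had 1148, 474 and 153 CPM in replicates 1, 2 and 3, highest in replicate 1. Ccl2, a monocyte chemokine, had 173, 390 and 630 UMIs, highest in replicate 3. Mt1, a metallothionein, had 169, 523 and 198 UMIs, highest in replicate 2. Of the 15 genes with the largest CV beyond counting at this level, 10 were lowest in replicate 3. Of the first 50, 13 were lowest in replicate 1, 16 in replicate 2 and 21 in replicate 3. Below that level, at 50 to 500 CPM, 12 of the 15 most variable genes were highest in replicate 3, several of them muscle genes that reached this level through that library alone. Of the 50 most variable, 19 were highest in replicate 1, 8 in replicate 2 and 23 in replicate 3. Lrrc32, which anchors latent TGF-beta at the cell surface, had 69, 66 and 360 UMIs in replicates 1, 2 and 3, highest in replicate 3. Krt7, a keratin that the mesothelial list also holds, had 96, 15 and 41 UMIs, highest in replicate 1. Sfn, an epithelial 14-3-3 protein, had 86, 35 and 13, highest in replicate 1 and lowest in replicate 3.

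The smallest CV at 500 CPM and above was 0.4%, for Edf1, a transcription coactivator, with 331, 387 and 412 UMIs. Counting alone gives a CV of 5.17% at its level, so the smaller value was not read as a property of the gene. At this level 36 of 318 genes had an estimated spread no larger than counting alone gives, which does not show that they did not differ. Gnb2, a G protein beta subunit, had 293, 340 and 372 UMIs. The ribosomal proteins Rpl11, Rpl4 and Rpl3 were also among the 10 with the smallest CV, each below the CV that counting alone gives.

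The most variable gene at 500 CPM and above was the row named Mir692-1, at 4494, 74.3 and 42.9 CPM in replicates 1, 2 and 3, which put it at rank 13 in replicate 1 and 2455 and 3823 in the others. Its annotated hairpin is shown because 68 of its 109 bases are found, in stretches of at least 25, in Ftl1 transcripts. The hairpin lies at chr17:6895229-6895337 and the mature form at chr17:6895259-6895279, both on the minus strand of GRCm38.p6, from RefSeq. Capitals mark the shared bases in the hairpin and the seed (bases 2 to 8) in the mature form.
Mir692-1: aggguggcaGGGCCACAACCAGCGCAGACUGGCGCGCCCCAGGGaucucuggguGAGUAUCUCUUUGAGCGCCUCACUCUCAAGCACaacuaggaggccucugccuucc
mmu-miR-692: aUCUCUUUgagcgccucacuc
The level of Ftl1 was 20395, 22074 and 20169 CPM in replicates 1, 2 and 3. Stretches of the hairpin are also found in transcripts of genes not listed, with 86 of the 109 bases in Ftl1-ps1 and in Ftl2-ps. Whether reads of any of these transcripts entered the row was not tested. Counting of polyadenylated 3′ ends does not measure mature microRNAs, so this row was not read as their level.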

How the data were processed

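Tuft cell libraries were made by bulk MARS-seq, and the 3 vehicle libraries were analysed out of 6. The submitters' processing notes name bcl2fastq, cutadapt, STAR 2.5.2b, HTSeq and DESeq2, with mm10 as build; which step each served is not stated there. Raw UMI counts as deposited, identified per the file headers, gave every value here. The table also holds the authors' normalized signal, regularized log2 values, and log2 fold changes and p-values of their comparison, none of which was used. Each of the 9088 genes had at least 6 UMIs in some of the 6 libraries, so totals are not full depth.

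CPM was taken over listed genes. Genes were ranked by mean CPM. The spread test, the excess CV and the shares were computed in Python 3.11.15 with scipy 1.17.1. The excess CV is the square root of the variance beyond counting, over the mean. The common CV was computed with edgeR 4.0.16 (R 4.3.3, TMM). DESeq2 1.42.0 gave alternative size factors. The spread test was tested on simulated data. Counting error alone is covered by that test. Coordinates come from GENCODE M21. No position was taken for 137 symbols, which either were not found there or had several loci.

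Named genes were the 25 most abundant, the 3 most abundant of each of 25 classes and 16 marker lists, the 5 given markers, the 15 with the largest excess CV in each of 2 strata (from 500 CPM, and 50 to 500) and the 10 with the smallest CV from 500 CPM. Tuft and other list members were also named by role. Some genes the rule gives are not reported here. Members and lists were chosen with earlier results of these data known. Alternatives were other scaling factors, filters and thresholds, thinning, and leaving out each library. Leave-one-out shares of the muscle-like, mesothelial and fibroblast lists and of Mir692-1 were chosen after seeing the data. Plots used matplotlib 3.10.9.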

Additional observations from a re-analysis of the deposited data

How the results depend on the processing

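The number of genes varying beyond counting noise was 1219. It was 1218 with TMM totals, 1222 with median-ratio factors, 1227 without ribosomal proteins, 1308 without the filter, 1044 at 60 UMIs and 1092 after thinning, 705 at an adjusted p under 0.01, and 594 to 793 without 1 library, where 2 libraries give less power. The common biological CV was 26.1% and 22.8% to 28.5% without 1 library. Without ribosomal proteins the 100 most abundant genes took 23.9% of UMIs, actin genes 4.62% and tuft markers 2.32%. Tuft markers took 0.237% as the 5 given markers and 1.01% without broad genes. Leaving out 1 library gave 28.6% to 29.2% for the 100 most abundant genes, 393.5 to 415 genes for 50% of UMIs, 15.3% to 15.9% for ribosomal proteins, 3.81% to 3.99% for actin and 1.87% to 2.05% for tuft markers. Added after seeing the data, leave-one-out shares were 0.0428% to 0.232% for the muscle-like list, lowest without replicate 3, 0.345% to 0.486% for the mesothelial list, 0.542% to 0.653% for fibroblasts and 0.00586% to 0.228% for Mir692-1, lowest without replicate 1. No paired analysis was possible because only 1 group was used. Genes with a few UMIs per library show only large differences at this depth.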

Other observations

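Among other rows named for microRNAs, Mir703 and Mir682 shared hairpin bases with transcripts of abundant genes. Mir703 had 307, 395 and 355 UMIs in replicates 1, 2 and 3, and 108 of its 109 hairpin bases were found in Eef1a1 transcripts, which had 1185, 1657 and 1362 UMIs. Mir682 had 135, 199 and 284 UMIs, and 95 of its 96 hairpin bases were found in Rpl37a transcripts, which had 383, 706 and 920. The median coding length was 615 bases for ranks 1 to 100, 777 for the next 900 genes, and 1332 for all 8806 genes with a coding length. Without ribosomal proteins it was 978 bases for ranks 1 to 100 and 789 for the genes after them up to rank 1000, so the order of these ranges turned. Protein-coding genes took 98.0% ± 0.227 of UMIs (SD, n = 3). Genes of chromosome 7, which holds Ftl1, took 11.8% ± 0.0543 (SD, n = 3).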
